A study of Mus musculus with 10 samples.

Results

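The Slc25a genes encode the mitochondrial carrier family, the proteins that exchange nucleotides, phosphate, carboxylates, amino acids, cofactors and metals across the inner mitochondrial membrane. Members were all protein-coding mouse genes whose symbol starts with Slc25a, with pseudogene symbols excluded. The annotation held 47 such genes. Of them, 46 had transcripts in the quantification and were measured, among 21785 protein-coding genes with transcripts in the whole series. Slc25a2 was not analysed here. RNA-seq covered CD45.2+ granulocyte-monocyte progenitors (GMPs) in 5 WT and 5 recent KO samples. WT donors carried ROSA26 CreER+/- and recent KO donors were Mpc2fl/fl; ROSA26 CreER+/-, where CreER is a tamoxifen-inducible recombinase driven from a broadly active locus. Donor marrow was mixed with CD45.1 competitor marrow in irradiated CD45.1 hosts, so the GMPs of both groups matured in a host with other hematopoietic cells present, and both groups ate tamoxifen for 2 wk before the sort. The animals were male C57Bl6/N mice, of an age not given in the sources used here. Each WT sample came from 1 mouse and each recent KO sample was pooled from 2 mice, which makes the recent KO group an average over 10 mice.

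Mitochondrial carriers share a fold of repeated transmembrane segments and each moves a narrow set of substrates, usually as an exchange. ADP/ATP carriers and the phosphate carrier feed ATP synthase. The citrate, dicarboxylate and oxoglutarate carriers and the aspartate/glutamate carriers connect the TCA cycle to the cytosol and, in the malate-aspartate shuttle, move reducing equivalents into mitochondria. Pyruvate does not use this family. It enters through the mitochondrial pyruvate carrier, a complex of MPC1 and MPC2, which is why loss of Mpc2 poses the question of whether transcripts for other entry routes change.

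Estimated reads per sample ran from 14133706 to 19745405 in WT and from 14033776 to 19658346 in recent KO. Mpc2, the deleted gene, measured 60.9 to 117 normalized CPM (read counts scaled to depth) in WT and 17.1 to 43.9 CPM in recent KO, and the groups did not overlap (log2 fold change -1.46, SE 0.24, edgeR adjusted p = 0.0156). That adjusted p was 0.05002 without recent KO replicate 1 and 0.134 with robust dispersions. Reads were summed over the whole gene, whereas the paper states that exon 3 is the floxed part of Mpc2. The remaining reads therefore do not measure how completely Mpc2 was deleted. Its partner Mpc1 measured 366 ± 35.6 CPM in WT and 397 ± 45.7 in recent KO (SD, n = 5 each; edgeR adjusted p = 0.716). Summed GMP markers, led by the granule genes Mpo and Elane, were high in all samples, at 87704 to 123522 CPM in WT and 51789 to 89764 in recent KO. Of these, 0 of 9 passed the edgeR test while 6 had an unadjusted p under 0.05. Those 6, Mpo, Elane, Prtn3, Ctsg, Fcgr3 and Csf1r, were lower in recent KO, with log2 fold changes from -0.65 to -0.38. Cebpa was also lower (-0.04), while Kit (0.08) and Cd34 (0.25) were higher. Macrophage markers summed to 14.9 to 28.6 CPM in WT and 30.8 to 53.3 in recent KO. Of these, 3 of 5 were called higher, the complement genes C1qa, C1qb and C1qc. Adgre1 had a log2 fold change of -0.39 (edgeR adjusted p = 0.569) and Vcam1 of 0.18 (edgeR adjusted p = 0.862). Megakaryocyte markers summed to 8.55 to 17.1 and 21.4 to 29.6 CPM, and erythroid markers to 13.9 to 49.6 and 28.2 to 218 CPM. Late neutrophil markers summed to 193 to 534 and 194 to 910 CPM, and basophil and mast cell markers to 145 to 258 and 181 to 313 CPM. Each of these lists had 0 called. The edgeR unadjusted p was under 0.05 for 3 of 3 tested megakaryocyte markers and 5 of 8 erythroid markers. It was also under 0.05 for 4 of 6 late neutrophil markers, Ltf, Camp, Ngp and S100a9, which were higher in recent KO. For basophil and mast cell markers it was under 0.05 for 2 of 3, which went opposite ways. Prss34 was lower in recent KO (log2 fold change -1.35) and Mcpt8 was higher (0.53). Of all genes tested, 10.2% had such a p and 0.331% were called. Lymphoid markers did not exceed 0.876 summed CPM in any sample, with Il7r at or under 3 counts throughout. In bulk samples, fewer cells of a type and less RNA per cell cannot be told apart, and the part these markers play in the values of the carriers was not tested.

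In WT GMPs, the family spanned from one of the most abundant mRNAs of the cell to genes with no read. Levels between genes are given per length, as TPM, the abundance of a transcript after scaling for its length and for sequencing depth. Slc25a5, which encodes the ADP/ATP carrier ANT2, measured 2184 ± 77.3 TPM (SD, n = 5) and ranked 74 among all 51717 genes. Slc25a3, the phosphate carrier, followed at 334 ± 13.2 TPM (rank 497), then Slc25a39, the glutathione importer, at 146 ± 8.07 TPM (rank 944), and Slc25a4, the ADP/ATP carrier ANT1, at 93.6 ± 14.2 TPM (rank 1303). These 4 genes made up 88.9% of the TPM of the family.

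The carriers of the TCA cycle and its shuttles came next. The oxoglutarate/malate carrier Slc25a11 measured 58.6 ± 5.99 TPM, the citrate carrier Slc25a1 51.8 ± 6.78 TPM, the aspartate/glutamate carrier Slc25a12 37.3 ± 3.31 TPM, and the dicarboxylate carrier Slc25a10 16.3 ± 1.59 TPM. Between them stood Slc25a17, a cofactor carrier of peroxisomes, at 36.7 ± 3.92 TPM, and Slc25a20, the carnitine/acylcarnitine carrier needed for long-chain fatty acid oxidation, at 15.2 ± 1.83 TPM. In all, 13 members had a WT mean of at least 10 TPM, 22 lay from 1 to 10 TPM, 4 from 0.1 to 1 TPM, and 7 below 0.1 TPM.

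The order was clear only near the top. Of the 34 neighbouring pairs among the 35 members with a mean of at least 1 TPM, 6 had WT ranges that stood apart. Slc25a5, Slc25a3, Slc25a39 and Slc25a4 were separated from each other and from the next gene, and Slc25a1 and Slc25a12, and Slc25a17 and Slc25a10, were separated too, whereas Slc25a11 and Slc25a1, Slc25a12 and Slc25a17, and every pair from Slc25a10 down overlapped. The coefficient of variation between WT samples ran from 3.54% for Slc25a5 to 50.9% for Slc25a47, with a median of 13.8%. The 10 members with the highest mean TPM in WT were also the 10 highest in recent KO.

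**Figure D1:**
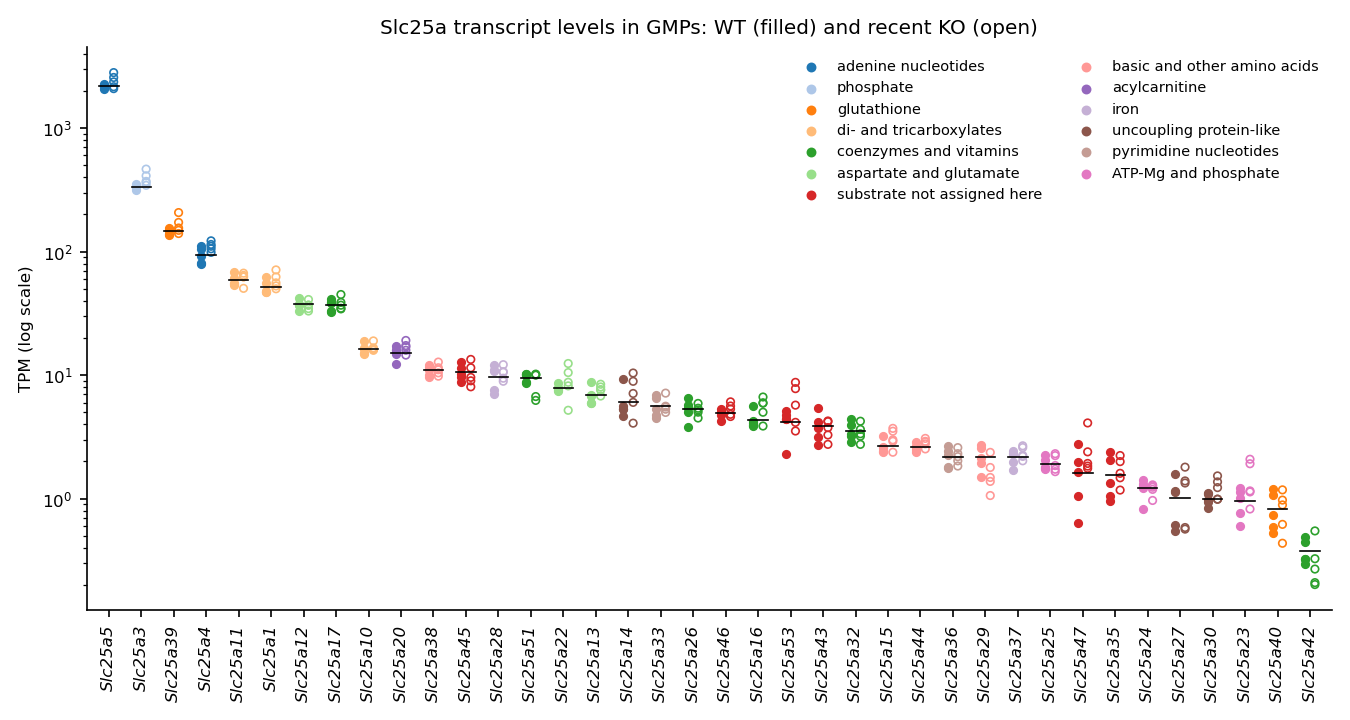
TPM on a log axis for 38 of the 39 tested Slc25a members, ordered by WT mean (black bars), with each of the 5 WT (filled) and 5 recent KO (open) samples as a point and colour by substrate. Slc25a5 sat 6.53-fold above Slc25a3, and below Slc25a10 neighbouring members overlapped between samples.

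The comparison of recent KO with WT tested whether transcripts for these carriers differed at the end of the deletion period. None of the 39 members with enough reads passed the edgeR quasi-likelihood test at an adjusted p under 0.05, beside 41 of the 12381 genes tested (0.331%). DESeq2 also called 0 members. At an unadjusted p under 0.05, 3 members passed, Slc25a12, Slc25a4 and Slc25a29, which is 7.69% of the members beside 10.2% of all genes. No member had normalized CPM ranges that did not overlap between groups, as 2.43% of all genes did. The sign was higher in recent KO for 22 members and lower for 17, with a median log2 fold change of 0.03, beside -0.0018 over all genes, of which 49.6% were higher. Scaling by library size alone gave 28 of 39 members higher, beside 67.0% of all genes, and limma on TPM gave 29 of 37, beside 63.5%.

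Each fold interval describes the summed transcripts of 1 gene in the edgeR fit and was not adjusted over the 39 members. The 95% interval of the fold lay within 1.5-fold in either direction for 34 of 39 members, beside 68.9% of all genes tested. The 5 exceptions were Slc25a29, Slc25a40, Slc25a42, Slc25a27 and Slc25a47, with means between 19.9 and 68.0 estimated reads per sample. Only Slc25a42 and Slc25a47 had intervals that reached beyond 2-fold, of 0.497 to 1.34 and 0.738 to 2.23 in recent KO over WT.

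**Figure D2:**
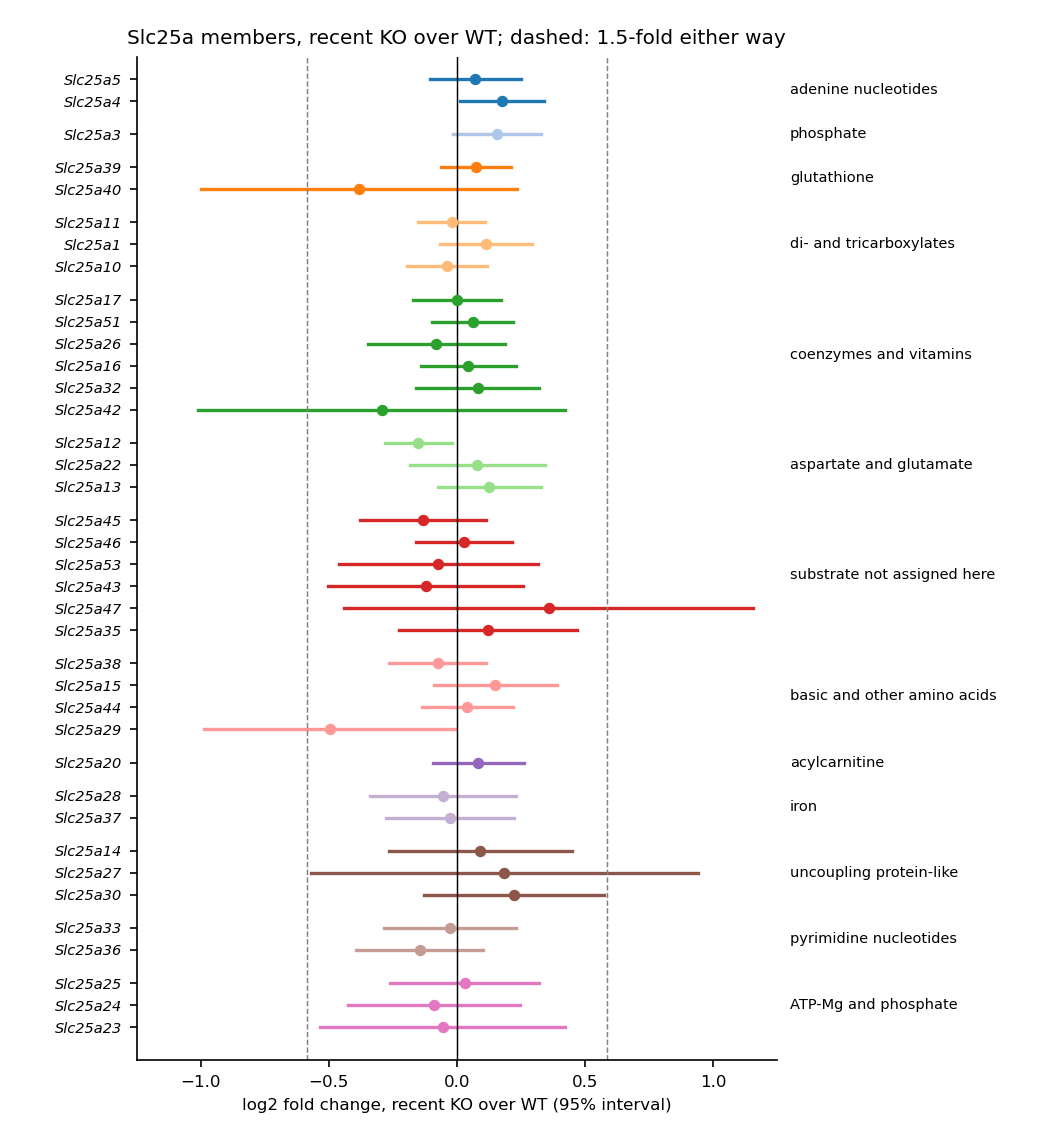
Log2 fold change between recent KO and WT, positive where recent KO was higher, for 38 of the 39 tested members (points) with 95% intervals from the edgeR fit (lines), grouped by substrate, with dashed lines at 1.5-fold in either direction. The points ran from -0.50 for Slc25a29 to 0.36 for Slc25a47, and 33 of the intervals drawn lay between the dashed lines.

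The ADP/ATP carriers, which export ATP made in the matrix in exchange for ADP, supplied 73.4% of the WT TPM of the family. Slc25a5 (chrX:36795651-36798807, GRCm38) measured 2488, 2591, 2808, 2917 and 2708 normalized CPM in WT replicates 1 to 5 and 2735, 3167, 3001, 2766 and 2541 in recent KO replicates 1 to 5. The groups overlapped, with the highest value in recent KO replicate 2 and the lowest in WT replicate 1. The log2 fold change was 0.07 (SE 0.08, edgeR adjusted p = 0.841), with a 95% interval of the fold from 0.929 to 1.19.

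Slc25a4 (chr8:46206797-46211284) had the smallest edgeR unadjusted p, 0.0378, among members with a positive log2 fold change. It measured 221, 198, 183, 183 and 215 CPM in WT and 248, 241, 230, 212 and 199 in recent KO. All 5 recent KO samples lay above the WT median of 198 CPM, but the ranges overlapped. Slc25a13 and Slc25a44 also had all 5 above their own WT medians. The log2 fold change of Slc25a4 was 0.18 (SE 0.08, edgeR adjusted p = 0.449). The third mouse ADP/ATP carrier, Slc25a31, which is known from testis, had 2 estimated reads in recent KO replicate 3 and 0 in the other samples. The Slc25a4 share of the TPM of Slc25a4 and Slc25a5 was 4.10% ± 0.541 in WT and 4.42% ± 0.350 in recent KO (SD, n = 5 each; exact two-sided permutation test, p = 0.262, adjusted p = 0.524 over 8 pairs).

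The promoters of the 3 ADP/ATP carriers are shown because these genes, with one biochemical role, stood at the top, in the upper range and at the floor of the family. The sequences are RefSeq windows of GRCm38.p6 from 250 bases before to 50 bases after the start, with CpG sites in capitals. They lie at chrX:36795347-36795646 on the plus strand, chr8:46211013-46211312 on the minus strand and chr3:40708621-40708920 on the plus strand. These RefSeq starts need not match the gene bounds given above. The Slc25a5 window ends before the gene start of chrX:36795651.
Slc25a5: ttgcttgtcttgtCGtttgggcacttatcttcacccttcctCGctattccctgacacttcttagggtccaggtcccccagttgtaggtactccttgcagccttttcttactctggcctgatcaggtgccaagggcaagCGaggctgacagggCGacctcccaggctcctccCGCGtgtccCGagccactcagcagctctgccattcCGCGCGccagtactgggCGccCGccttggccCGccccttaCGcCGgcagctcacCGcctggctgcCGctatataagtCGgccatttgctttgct
Slc25a4: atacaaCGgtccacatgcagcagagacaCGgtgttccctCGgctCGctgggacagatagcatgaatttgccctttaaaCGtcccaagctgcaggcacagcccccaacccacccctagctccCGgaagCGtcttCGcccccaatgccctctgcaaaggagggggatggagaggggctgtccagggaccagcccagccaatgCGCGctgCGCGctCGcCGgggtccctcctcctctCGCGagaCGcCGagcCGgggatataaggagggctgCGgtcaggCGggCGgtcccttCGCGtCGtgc
Slc25a31: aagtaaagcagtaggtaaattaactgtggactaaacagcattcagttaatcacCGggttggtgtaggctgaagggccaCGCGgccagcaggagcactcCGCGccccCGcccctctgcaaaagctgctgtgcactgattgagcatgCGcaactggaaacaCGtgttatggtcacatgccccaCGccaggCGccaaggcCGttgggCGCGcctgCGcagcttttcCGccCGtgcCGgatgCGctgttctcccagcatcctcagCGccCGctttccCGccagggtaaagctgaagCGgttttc
They held 18, 25 and 22 CpG sites, so the gene with no WT read had more than the gene with 2184 TPM. Over all 27025 genes with a window the median was 7.

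Phosphate enters the matrix mainly through Slc25a3 (chr10:91116574-91124059). It measured 517, 593, 602, 584 and 571 CPM in WT and 669, 729, 663, 584 and 552 in recent KO. Recent KO replicates 1 to 3 exceeded every WT sample and replicates 4 and 5 fell inside the WT range (log2 fold change 0.16, SE 0.08, edgeR adjusted p = 0.527). The ATP-Mg/phosphate carriers, which set the size of the matrix adenine nucleotide pool, were far lower, and together measured 4.18 ± 0.436 TPM in WT and 4.66 ± 0.536 TPM in recent KO. Slc25a25, Slc25a24 and Slc25a23 were tested and 0 of 3 were called. Slc25a41 had at most 4 reads in a sample.

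Carboxylate carriers move citrate, malate and oxoglutarate between matrix and cytosol, and 3 of 4 were tested with 0 called. Slc25a1 (chr16:17925223-17928219), which exports citrate for lipid synthesis, measured 101, 84.2, 90.2, 90.2 and 94.4 CPM in WT and 98.5, 117, 105, 84.6 and 92.5 in recent KO. Recent KO replicates 2 and 3 exceeded every WT sample and the remaining values overlapped (log2 fold change 0.11, SE 0.08, edgeR adjusted p = 0.708). Slc25a11 (chr11:70644196-70647479), a component of the malate-aspartate shuttle, measured 112, 96.4, 102, 104 and 103 CPM in WT and 93.2, 102, 104, 110 and 102 in recent KO. Those groups covered almost the same range, and the log2 fold change of -0.019 (SE 0.06, edgeR adjusted p = 0.951), positive under scaling by library size alone, had a 95% interval of the fold from 0.901 to 1.08. Slc25a10 (chr11:120491840-120499187), which exchanges malate or succinate for phosphate, measured 33.3 to 39.2 CPM in WT and 33.4 to 39.1 in recent KO (log2 fold change -0.039, SE 0.07, edgeR adjusted p = 0.907; positive under scaling by library size alone). The oxoadipate carrier Slc25a21 had at most 1 read in a sample.

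The aspartate/glutamate carriers export aspartate and complete the malate-aspartate shuttle. Slc25a12 (Aralar, chr2:71271063-71367749) had the smallest p of the family. It measured 130, 120, 118, 126 and 111 CPM in WT and 107, 118, 111, 102 and 106 in recent KO. All 5 recent KO samples lay below the WT median of 120 CPM, yet recent KO replicate 2 stood above WT replicates 3 and 5. The log2 fold change was -0.15 (SE 0.06, unadjusted p = 0.0265, edgeR adjusted p = 0.415), and the adjusted p was 0.207 without recent KO replicate 2.

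Slc25a13 (citrin, chr6:6041218-6217173), the paralog with the same exchange, measured 18.5, 18.4, 22.0, 21.8 and 18.3 CPM in WT and 21.2, 19.0, 25.3, 20.8 and 21.5 in recent KO. Its recent KO samples all exceeded the WT median, with overlapping ranges (log2 fold change 0.13, SE 0.09, edgeR adjusted p = 0.709). Slc25a12 made up 84.3% ± 3.08 of the TPM of this pair in WT and 82.5% ± 1.29 in recent KO (SD, n = 5 each; exact two-sided permutation test, p = 0.262, adjusted p = 0.524). The glutamate carrier Slc25a22 (chr7:141429744-141437892) measured 18.7, 20.3, 20.5, 24.1 and 19.8 CPM in WT and 15.2, 24.5, 23.6, 24.5 and 21.2 in recent KO. Recent KO replicate 1 was the lowest of all 10 samples and the other recent KO samples lay within or just above the WT range (log2 fold change 0.08, SE 0.12, edgeR adjusted p = 0.881). Its paralog Slc25a18 had at most 2 reads in a sample, so Slc25a22 held at least 99.3% of that pair in every sample. Of the 4 enzymes of the malate-aspartate shuttle, Got1, Got2, Mdh1 and Mdh2, 0 were called. The log2 fold change was positive for 3, with a median of 0.11, beside 49.6% of all genes tested that were higher.

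**Figure D3:**
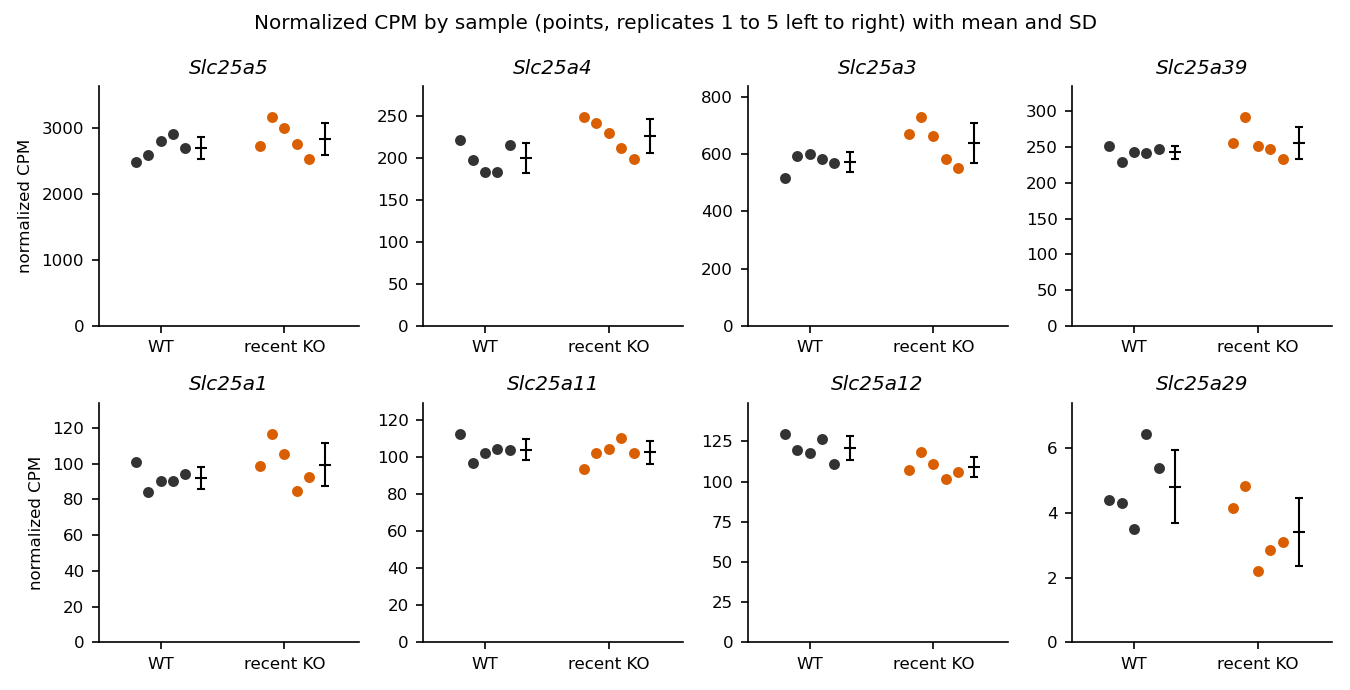
Normalized CPM in each of the 5 WT (black) and 5 recent KO (orange) samples for 8 members, with mean and SD beside the points and axes from 0. Groups overlapped in every panel, and the recent KO points of Slc25a4 lay above the WT median of 198 CPM while those of Slc25a12 lay below the WT median of 120 CPM.

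The Slc25a12 signal carried a feature of transcript assignment. Of its TPM, 84.5% ± 1.43 in WT and 84.5% ± 2.75 in recent KO (SD, n = 5 each) was assigned to Slc25a12-207, a transcript annotated as a target of nonsense-mediated decay. The full-length coding transcript Slc25a12-206 received 11.0% ± 1.20 and 9.74% ± 0.481. By estimated reads the shares in WT were 72.1% and 27.2%. The decay transcript lacks exon 4 of the coding one, at chr2:71333605-71333720 on the minus strand, whose 116 bases are not a multiple of the codon length. That exon is shown in capitals, with 20 bases of the neighbouring exons on each side in lower case.
Slc25a12-206, exon 4: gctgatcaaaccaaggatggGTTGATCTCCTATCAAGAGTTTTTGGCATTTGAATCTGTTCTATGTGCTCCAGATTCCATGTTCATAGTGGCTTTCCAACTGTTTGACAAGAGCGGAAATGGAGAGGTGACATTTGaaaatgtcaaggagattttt
The models also differ at their ends. The last exon of Slc25a12-206 runs for 4291 bases and that of Slc25a12-207 for 664 bases, and the first exon for 237 and 21 bases. The deposited values are one estimate per transcript, so reads over exon 4 and reads over the long last exon cannot be told apart in them, and whether exon 4 is skipped in these cells was not tested. The labels and exons are those of GENCODE M21, and the reads were quantified against M27, in which these models may differ. Counted by its highest coding transcript alone, at 4.09 TPM, Slc25a12 left the top 10 in WT. Over coding transcripts only, a choice made after seeing the data, Slc25a12 made up 44.1% ± 3.31 of its pair with Slc25a13 in WT and 37.4% ± 3.39 in recent KO (SD, n = 5 each; exact two-sided permutation test, p = 0.0238, adjusted p = 0.159 over 8 pairs).

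**Figure D4:**
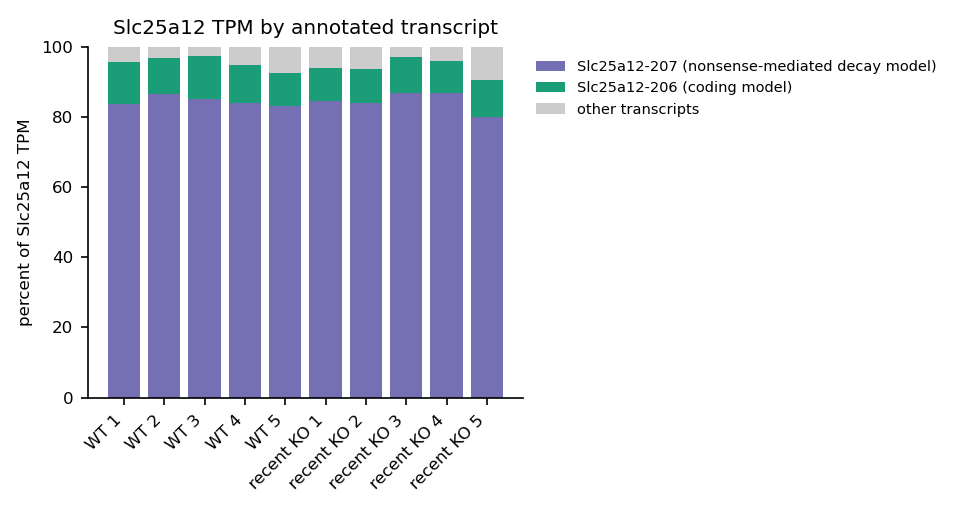
Percent of Slc25a12 TPM assigned to each annotated transcript in the 5 WT and 5 recent KO samples. The decay transcript Slc25a12-207 held 80.1% to 86.9% in every sample, and the coding transcript Slc25a12-206 held 9.21% to 12.3%.

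Of the carriers of basic and other amino acids, 0 of 4 tested were called. Slc25a29 (chr12:108825873-108835883), which imports basic amino acids, had the most negative log2 fold change among members averaging at least 50 reads. It measured 4.41, 4.33, 3.50, 6.45 and 5.39 CPM in WT and 4.15, 4.83, 2.20, 2.86 and 3.09 in recent KO. Recent KO replicates 3 to 5 lay below every WT sample, whereas replicates 1 and 2 lay inside the WT range (log2 fold change -0.50, SE 0.23, edgeR adjusted p = 0.479). Slc25a15 (chr8:22375551-22398597), the ornithine/citrulline carrier of the urea cycle, measured 10.1 to 12.5 CPM in WT and 10.3 to 14.3 in recent KO (log2 fold change 0.15, SE 0.11, edgeR adjusted p = 0.715). Slc25a38, a glycine carrier for heme synthesis, measured 10.9 ± 1.02 TPM in WT and 11.1 ± 1.12 TPM in recent KO, with the opposite sign in normalized CPM (log2 fold change -0.07, SE 0.09, edgeR adjusted p = 0.845). Slc25a44, a carrier of branched-chain amino acids, measured 2.62 ± 0.193 and 2.83 ± 0.202 TPM.

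Slc25a20 (chr9:108662088-108684641), through which acylcarnitines enter for oxidation, measured 30.9, 30.9, 30.5, 24.7 and 29.5 CPM in WT and 29.7, 30.4, 31.9, 34.9 and 28.6 in recent KO. WT replicate 4 was the lowest of all 10 samples and recent KO replicate 4 the highest, and the groups overlapped (log2 fold change 0.08, SE 0.08, edgeR adjusted p = 0.807).

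Carriers of coenzymes and vitamins gave 0 calls among 7 tested. Slc25a17 (chr15:81318911-81360812) measured 62.2 to 70.1 CPM in WT and 58.9 to 76.3 in recent KO (log2 fold change 0.00046, SE 0.08, edgeR adjusted p = 0.999; negative with the replicate block). The NAD carrier Slc25a51 measured 9.56 ± 0.787 TPM in WT and 8.64 ± 1.99 TPM in recent KO, while its normalized CPM had the opposite sign (log2 fold change 0.06, SE 0.07, edgeR adjusted p = 0.845). The S-adenosylmethionine carrier Slc25a26, the coenzyme A carrier Slc25a16 and the folate carrier Slc25a32 had WT means of 5.33, 4.36 and 3.55 TPM. Slc25a42, also linked to coenzyme A, was the lowest of the tested members, at 0.378 TPM.

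The glutathione importer Slc25a39 (chr11:102402985-102407946) measured 251.9, 229, 242, 242 and 248 CPM in WT and 255, 291, 251, 247 and 233 in recent KO. Only recent KO replicates 1 and 2 lay above every WT sample (log2 fold change 0.07, SE 0.06, edgeR adjusted p = 0.764). Its paralog Slc25a40 made up the small remainder, so that Slc25a39 held 99.4% ± 0.171 of the pair in WT and 99.5% ± 0.125 in recent KO (SD, n = 5 each; exact two-sided permutation test, p = 0.484). The iron carriers are mitoferrin 2, encoded by Slc25a28 and widely expressed, and mitoferrin 1, encoded by Slc25a37 and known from erythroid cells. Slc25a28 measured 9.67 ± 2.22 TPM and Slc25a37 2.15 ± 0.296 TPM in WT, and Slc25a28 held 81.3% ± 4.09 of the pair in WT and 81.5% ± 1.57 in recent KO (exact two-sided permutation test, p = 0.921, n = 5 each). The interval of the Slc25a37 fold, from 0.825 to 1.17, was measured beside summed erythroid markers of 13.9 to 49.6 CPM in WT and 28.2 to 218 in recent KO.

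The pyrimidine nucleotide carriers Slc25a33 and Slc25a36 had WT means of 5.59 and 2.18 TPM, and 0 of 2 were called. Slc25a36 (chr9:97074961-97111157) measured 9.64 to 14.4 CPM in WT and 9.97 to 11.95 in recent KO (log2 fold change -0.14, SE 0.11, edgeR adjusted p = 0.745; positive with limma on TPM). Among genes named after uncoupling proteins, Slc25a14, Slc25a30 and Slc25a27 all had a higher mean in recent KO and 0 of 3 were called. Slc25a30 (chr14:75760117-75787037) measured 4.55, 4.77, 4.33, 3.89 and 4.07 CPM in WT and 6.19, 6.15, 4.99, 4.02 and 4.02 in recent KO, so that replicates 1 to 3 lay above WT and replicates 4 and 5 within it (log2 fold change 0.22, SE 0.16, edgeR adjusted p = 0.711).

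Of the 9 members given no substrate here, 6 were tested and 0 called. Slc25a45 (chr19:5877808-5885878) measured 23.8 to 30.4 CPM in WT and 19.8 to 30.0 in recent KO (log2 fold change -0.13, SE 0.11, edgeR adjusted p = 0.770). Slc25a43 (chrX:36743659-36777202) measured 3.19 to 5.29 CPM and 3.16 to 4.43 CPM (log2 fold change -0.12, SE 0.18, edgeR adjusted p = 0.875). Slc25a46, Slc25a53, Slc25a47 and Slc25a35 had WT means of 4.90, 4.18, 1.62 and 1.56 TPM. Slc25a48 had at most 1 read and Slc25a34 at most 2 reads in a sample, and Slc25a54 had no read in any of the 10 samples. Where 1 of the 7 untested members had a count of 0, counting error allows up to 3 reads, or at most 0.233 normalized CPM in any sample. Slc25a41 was measured above that bound in recent KO replicate 1, at 4 reads and 0.281 normalized CPM.

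The shares of the remaining pairs of related carriers overlapped between groups. Slc25a16 held 91.9% ± 2.17 of the Slc25a16 and Slc25a42 TPM in WT and 94.6% ± 2.19 in recent KO, the smallest p of the 8 pairs (exact two-sided permutation test, p = 0.111, adjusted p = 0.524, n = 5 each). Slc25a33 held 71.7% ± 4.58 and 72.1% ± 4.25 beside Slc25a36, and Slc25a24 held 38.5% ± 6.50 and 38.1% ± 5.29 beside Slc25a25. The smallest p that 5 samples against 5 can give is 0.0079, and none of the 8 pairs reached an adjusted p under 0.05.

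The family as a whole measured 3103 ± 113 TPM in WT and 3427 ± 403 TPM in recent KO (SD, n = 5 each). Recent KO replicate 2 was the highest at 4011 TPM. Recent KO replicates 1 and 5, at 3029 and 3108 TPM, lay within the WT range of 2998 to 3249 TPM. In TPM most genes were higher in recent KO, at 63.5% of all genes in limma with a pseudocount of 1. In the edgeR fit, the tested members had a median log2 fold change of 0.03. In normalized CPM, recent KO replicate 2 gave the highest value of its group for 17 of the 39 tested members, and in WT replicate 1 did so for 15. Slc25a5 took 68.8% to 72.1% of the TPM of the family in every sample.

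Genes that work beside the family were examined in the same fit. Of the relatives under other names, Ucp2, a homolog of the uncoupling protein of brown fat, measured 296 ± 16.1 TPM in WT, and the outer membrane proteins Mtch2 and Mtch1 measured 194 and 84.2 TPM on average. None of these 3 was called, and Mtch2 had an edgeR unadjusted p of 0.036 (log2 fold change 0.13). Ucp1 and Ucp3 were at or under 3 reads in all samples. Of 13 components that import carriers into the inner membrane (TOM receptors, small TIM chaperones and the TIM22 complex), 0 were called. The log2 fold change was positive for 12, with a median of 0.08, beside 49.6% of all genes tested that were higher. Whether these genes changed together was not tested. Timm10, a chaperone that escorts carriers between the membranes, had the smallest p of that list (log2 fold change 0.17, SE 0.06, edgeR adjusted p = 0.382). Of 9 other mitochondrial transporters, 8 were tested and 0 called, with unadjusted p under 0.05 for Sfxn3 (log2 fold change 0.28) and for Mcu, the calcium uniporter (log2 fold change -0.28).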

How the data were processed

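RNA was made into SMARTseq V4 libraries, which do not mark strand, and sequenced as paired reads. The authors quantified transcripts with Salmon 1.5.1 (version from the submitters' processing notes) against GENCODE M27. The deposited files give expected counts and TPM per transcript for each sample. A further deposited table of the authors' DESeq2 comparison was not used. Expected counts and TPM were summed per gene through the GENCODE M21 annotation (GRCm38, the build of all coordinates here), to which 97.4% of transcripts matched by identifier. The unmatched ones held at most 0.390% of the reads of a sample. Summed expected counts were rounded, filtered with filterByExpr (minimum count 10) and tested with edgeR 4.0.16 (TMM scaling, quasi-likelihood F-test, Benjamini-Hochberg adjustment over the 12381 genes kept). Normalized CPM are CPM after TMM scaling. Fold intervals are at 95%. Scripts were tested on simulated data.

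Gene lists and members were chosen with earlier results of these data known. Members given full statistics were those called, the 10 highest in WT TPM, those with non-overlapping ranges, the 5 higher and 5 lower of largest fold change with a mean of at least 50 reads, and the tested carboxylate and aspartate/glutamate carriers. Pair shares were percentages of TPM, tested by exact permutation in pairs with over 50 reads in every sample. Near copies were sought with BLAST 2.17.0 over at least 300 aligned bases. Promoter windows came from RefSeq (GRCm38.p6), of which 36 of the 46 members matched. Protein sequences were not used here. The values of 1 tested member are not reported here. Alternatives were other scalings, filters, length offsets, dispersions and tools (DESeq2 1.42.0, limma 3.58.1), a replicate block, and each sample left out. Samples of a group come from separate mice or pools. Floors cover counting error only, and fold intervals include the spread between samples.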

Additional observations from a re-analysis of the deposited data

Results flagged for a closer look

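One value among the members described with full statistics stood far from its group. Slc25a20, the acylcarnitine carrier, measured 24.7 normalized CPM in WT replicate 4, while the other 4 WT samples lay between 29.5 and 30.9 CPM. The gap to the nearest sample was 0.772 of the range of the group, above the critical value of 0.71 for 5 samples. Of 36 sets of 5 samples examined, 1 was marked in this way, and chance marks about 1 in 20. Without WT replicate 4 the log2 fold change of Slc25a20 in recent KO over WT was 0.030 (edgeR adjusted p = 0.956), beside 0.08 with it.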

How the results depend on the processing

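No Slc25a member passed an adjusted p under 0.05 under any of the 11 other settings or with any of the 10 samples left out, and the number with an unadjusted p under 0.05 ran from 0 to 3. Over all genes, 41 calls became 206 without a count filter, 156 with DESeq2, 25 when limma was run on TPM with a pseudocount of 1 and 24 with 0.1, and 25 to 91 with 1 sample left out. The 91 came without recent KO replicate 2, and counts lower by more than 1.5 times came without WT replicate 3 (26) and without recent KO replicates 3 and 4 (25 each). The replicate numbers did not pair the samples (correlations of same-numbered deviations from -0.174 to 0.037), and with the replicate block 20 genes were called and Mpc2 gave -1.46 (adjusted p = 0.0577). Mpc2 missed the threshold also with transcript length offsets (-1.40), robust dispersions (-1.46) and limma on TPM (-1.35 and -1.38), and ran from -1.60 to -1.31 with 1 sample left out. The cause of these changes was not tested.

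Of 198 values of the 18 named members under other settings, 12 changed sign, all uncalled. Slc25a11 gave 0.052 with library size alone, 0.0013 with length offsets and 0.062 and 0.063 with limma. Slc25a10 gave 0.031, 0.038 and 0.040 with library size alone and limma. Slc25a17 gave -3.2e-05 without a filter, -0.011 with length offsets and -0.0043 with the replicate block. Slc25a36 gave 0.0077 and 0.013 with limma. With 1 sample left out, Slc25a11 ran from -0.047 to 0.012 and Slc25a17 from -0.051 to 0.044. The Slc25a28 share difference was -0.285 percentage points in normalized CPM, and with 1 sample left out it ran from -0.973 to 1.49, that of Slc25a33 from -1.06 to 2.14 and that of Slc25a24 from -2.93 to 1.72 points. By the highest coding transcript, 9 of the top 10 members in WT were kept. With coding transcripts only, a choice made after seeing the data, the Slc25a28 difference was -4.08 and the Slc25a39 difference -0.0682 points, and the differences of the other 6 pairs kept their sign. The 5 members whose fold intervals reached beyond 1.5-fold averaged 19.9 to 68.0 reads per sample.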

Other observations

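Of the members, 4 pairs lie close together on a chromosome. Slc25a43 and Slc25a5 lie 18448 bases apart on the same strand of chromosome X and measured 3.86 and 2184 TPM in WT. Slc25a54 and Slc25a24 lie 6461 bases apart on chromosome 3, the first with no read and the second at 1.21 TPM. Slc25a41 and Slc25a23 are separated by 2056 bases on chromosome 17 and measured 0.0979 and 0.949 TPM. Slc25a29 and Slc25a47 lie on opposite strands of chromosome 12 and measured 2.17 and 1.62 TPM. Their GENCODE gene bounds are 162 bases apart. Their RefSeq promoter windows lie further apart, at chr12:108835827-108836126 for Slc25a29 and chr12:108850879-108851178 for Slc25a47.

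Low members Slc25a35 and Slc25a18 overlap a far more abundant gene on the opposite strand, and reads of such genes are not separated by strand in these libraries. Slc25a35, at 1.56 TPM in WT, shares 547 identical bases with Rangrf, at 173 TPM. Slc25a18, at 0.0277 TPM, overlaps Atp6v1e1, at 168 TPM. Slc25a5 has 11 pseudogenes that align at 86.8% to 98.3% identity, which together measured 0.870 TPM in WT and at most 0.0505% of the Slc25a5 level in any sample.

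In TPM, Slc25a12 was not alone in drawing much of its signal from transcripts not annotated as coding. Among the 35 members with at least 1 TPM in WT, 22 had at least 90% of their TPM in coding transcripts and 5 had under 60%. The 5 were Slc25a12, Slc25a28 (44.3%), Slc25a14 (55.5%), Slc25a53 (1.00%) and Slc25a47 (50.9%). For Slc25a28, 50.5% ± 6.92 of TPM in WT and 58.9% ± 9.51 in recent KO (SD, n = 5 each) went to Slc25a28-203, annotated as a processed transcript. By estimated reads the WT order was reversed, with 33.5% for Slc25a28-203 and 49.9% for the coding transcript Slc25a28-201. The coding transcript Slc25a14-208 held 70.9% of the WT reads of Slc25a14.

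Promoter windows of the 30 tested members that matched held a median of 18.5 CpG sites, with 6 to 47 per window, beside 9.0 in the 6 untested ones, where Slc25a34 had 1 and Slc25a31 had 22. The motif CCGGAA, read on both strands, was in 11 of the 30 windows (36.7%), beside 15.2% of all windows. All windows include those of genes not tested and held a median of 7 CpG sites, so these shares are not like for like. The motif GCGCATGC, on both strands, was in 0 of the 30 and in 2 of the 6 untested ones, Slc25a31 and Slc25a54, beside 2.80% of all windows. A match is a description of the letters and no test was made.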
